A study of Mus musculus with 6 samples.

Results

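The 10 genes of the circadian clock described here were measured by RNA sequencing in mouse dental pulp, the soft tissue inside the tooth. They are the positive-limb genes Arntl, Clock and Npas2, the negative-limb genes Per1, Per2, Per3 and Cry1, the nuclear receptor repressors Nr1d1 and Nr1d2, and the output gene Dbp. They were taken from the deposited table by gene symbol, and all 10 were found among its 53342 genes. All 10 passed the filter on low counts, with no member under 112.8 estimated counts in any library. The study compared 3 wild-type (WT) mice with 3 homozygous Mmp13-/- mice, which lack matrix metalloproteinase-13, a secreted collagenase, in every cell. All mice were 3 months old and of strain C57BL/6, and the methods describe the animals as male. No treatment is named in the labels for either genotype. Samples are named by their labelled replicate numbers, which are 2, 4 and 5 for WT and 1, 2 and 6 for Mmp13-/- (MMP13KO in the plots). The labels give molar pulp with RNA from a column kit, and the methods give incisor pulp with TRIzol. The hour at which the pulps were collected is not given in the sources used here, so genotype and hour of collection cannot be told apart.

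The circadian clock is a feedback loop of transcription that runs in nearly every cell. ARNTL (also called BMAL1) pairs with CLOCK or with its relative NPAS2, and the pair switches on genes that carry E-boxes, among them the Per, Cry, Nr1d and Dbp genes. PER and CRY proteins then return to the nucleus and repress the pair, while the NR1D (REV-ERB) proteins repress Arntl and other genes through a sequence shared with the ROR activators. As a result, transcripts of Arntl and Npas2 usually peak at the opposite phase of the day from those of Nr1d1, Per and Dbp, whereas Clock transcripts swing little in many tissues. Teeth carry the record of a daily rhythm in the growth lines of enamel and dentin.

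The elements named above can be read in the sequence beside the start sites of the members. RefSeq windows on GRCm38.p6, each from 250 bases before to 50 after a start, were found for 9 of the 10 genes, 13 windows in all. Both strands were searched for the E-box CACGTG, for the D-box TTATGTAA, which is bound by DBP and its relatives, and for the core TAGGTCA of the element shared by the NR1D and ROR proteins. At least 1 of these was found for 4 members, and the stretches that hold it are printed 5′ to 3′ with the motif in capitals, for the 250 bases before the start or, for Arntl, 30 bases around a match inside the transcribed part.
Per3, chr4:151044666-151044915, minus strand: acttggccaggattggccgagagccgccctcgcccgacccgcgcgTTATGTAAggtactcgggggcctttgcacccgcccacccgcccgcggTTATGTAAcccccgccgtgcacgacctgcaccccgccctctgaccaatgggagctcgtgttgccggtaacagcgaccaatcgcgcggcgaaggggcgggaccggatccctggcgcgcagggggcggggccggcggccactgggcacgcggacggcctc
Arntl, chr7:113207530-113207559, plus strand: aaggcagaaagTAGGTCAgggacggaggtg
Cry1, chr10:85185055-85185304, minus strand: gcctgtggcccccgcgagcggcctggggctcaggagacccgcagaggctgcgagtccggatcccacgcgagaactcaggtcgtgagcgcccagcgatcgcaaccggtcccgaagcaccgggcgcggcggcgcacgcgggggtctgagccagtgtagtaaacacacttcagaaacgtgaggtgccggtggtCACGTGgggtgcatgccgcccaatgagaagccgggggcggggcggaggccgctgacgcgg
Per1, chr11:69098699-69098948, plus strand: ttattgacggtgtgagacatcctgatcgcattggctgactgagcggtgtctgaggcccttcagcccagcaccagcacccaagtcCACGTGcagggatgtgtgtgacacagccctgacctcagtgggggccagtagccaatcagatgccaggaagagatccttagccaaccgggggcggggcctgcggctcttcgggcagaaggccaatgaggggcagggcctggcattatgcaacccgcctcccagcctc
Per3 held D-boxes 205 and 158 bases before its start, Cry1 an E-box 60 bases before and Per1 an E-box 166 bases before. In Arntl the core began 31 bases after the start. Of 32817 windows of the same length over all genes, 7.15% held the E-box, 0.935% the D-box, 2.61% the core and 10.5% any of the 3. A match describes the letters only, and these windows leave out elements that lie farther from a start.

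The genotype labels were checked on Mmp13 itself. Its normalized count, the estimated count scaled by TMM (trimmed mean of M-values) library size to the mean library, was 997.3, 1059 and 815.9 in the WT mice numbered 2, 4 and 5. In Mmp13-/- samples 1, 2 and 6 it was 8.741, 29.73 and 63.24. Every Mmp13-/- sample lay below every WT sample (log2 fold change -4.96, standard error (SE) 0.46, Benjamini-Hochberg adjusted p = 7.67e-05 in the quasi-likelihood test of edgeR, which gave every adjusted p below).

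The libraries held 21561420 to 29980236 estimated counts, all WT totals being above all Mmp13-/- totals. Counts per kilobase over 1728 odorant and vomeronasal receptor genes, which pulp is not known to use, ran from 0.137 to 0.255 in WT and were 1.63, 1.88 and 4.90 in Mmp13-/- samples 1, 2 and 6. Sample 6 also stood apart from samples 1 and 2, at a chi-square per degree of freedom of 573 and 443 against 50.7 between those samples and 27.7 to 53.4 within WT. Dspp, which defines the odontoblasts that line the pulp, was abundant at 14160 to 44480 normalized counts in WT and 42460 to 65460 in Mmp13-/-. Transcripts of other cell types were present, and those of several types moved with genotype. The 10 skeletal muscle markers summed to 1472000 to 1707000 normalized counts in WT and 270000 to 633300 in Mmp13-/-, with 8 called lower, and the 8 odontoblast markers to 1490000 to 1671000 and 461600 to 610100, with 3 called lower and 3 higher. The 7 neutrophil markers summed to 3566 to 7456 and 18650 to 46170, all called higher, the 6 erythroid markers to 23340 to 37390 and 55120 to 103000, with 5 called higher, and the 5 B cell markers to 167.4 to 330.1 and 814.1 to 1084, all called higher. The 6 proliferation genes, at 2421 to 3241 in WT and 7605 to 12360 in Mmp13-/-, were all called higher. Of the 6 macrophage markers 2 were called higher, of 5 endothelial markers 1 higher and 2 lower, of 5 Schwann cell markers 1 lower, and of 6 ameloblast markers 1 higher. Over all genes tested 27.3% were called higher and 24.3% lower, and 1 of 5 or 1 of 6 lies under these shares. No marker stood at 0 in every sample. Their part in the clock results was not tested, and in bulk tissue fewer cells of a type and less RNA per cell cannot be told apart.

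Of the 10 clock genes, 7 differed between genotypes at an adjusted p under 0.05. Arntl, Npas2, Nr1d1, Per1 and Cry1 were lower in Mmp13-/-, Clock and Nr1d2 were higher, and Per2, Per3 and Dbp did not pass. The background was high. Over the 24534 genes tested, 27.3% were called higher and 24.3% lower, so that 2 of 10 higher is near the share of all genes and 5 of 10 lower is above it. Past 2-fold, 4 members were lower (Arntl, Npas2, Nr1d1 and Per1) against 9.68% of all genes, and none was higher against 20.4%. The 3 samples of one genotype lay wholly outside the 3 of the other for 6 members, compared with 60.9% of all genes. The median log2 fold change of the members was -0.57, beside 0.10 over all genes tested. A permutation test of 3 against 3 samples has a smallest p of 0.1, so per-gene tests relied on the edgeR fit.

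**Figure D1:**
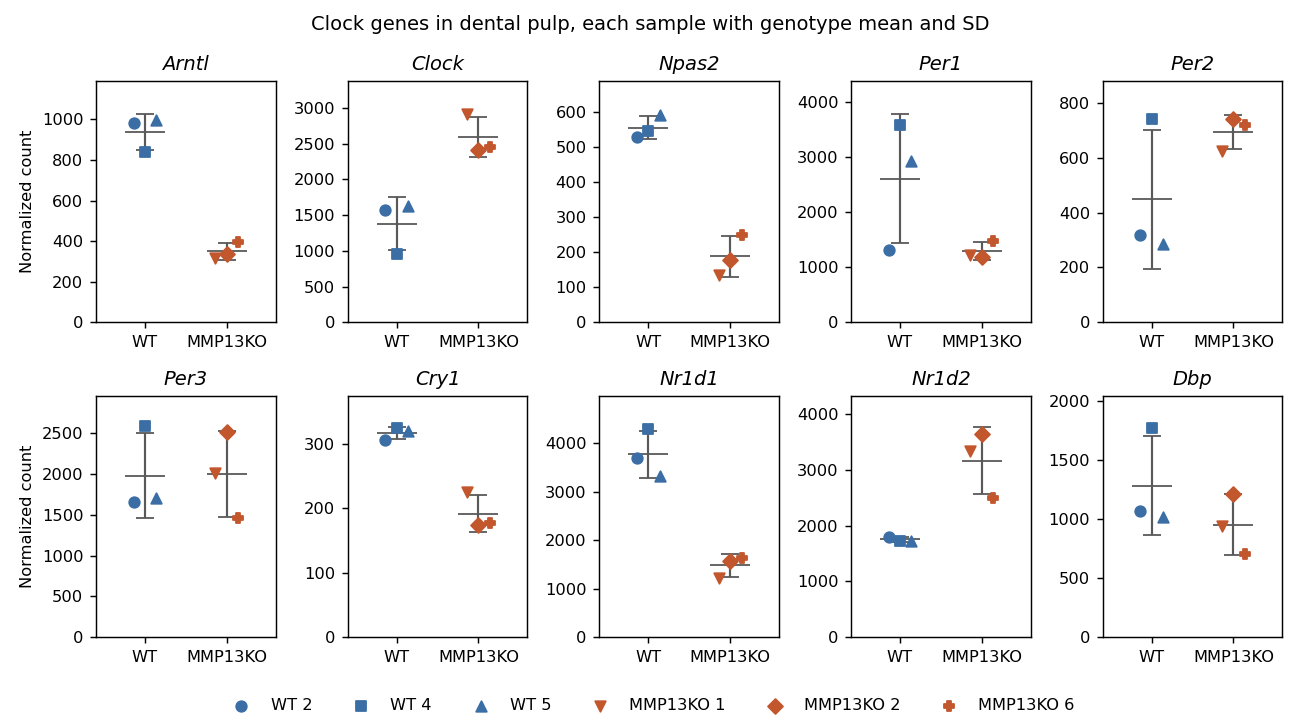
Normalized count (y axis, linear from 0) of each clock gene in the 3 WT and 3 MMP13KO (Mmp13-/-) samples, with a marker shape for each sample and bars for genotype mean and SD. Arntl, Npas2, Cry1 and Nr1d1 lie wholly lower in MMP13KO, Clock and Nr1d2 wholly higher, and WT sample 4 tops the WT group for Per1, Per2, Per3 and Dbp.

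The positive limb split. Arntl and Npas2 fell together while Clock rose. Arntl (ENSMUSG00000055116, chromosome 7, 113207465 to 113314126, plus strand, GENCODE M21 on GRCm38, as for all positions that follow) encodes the partner that both CLOCK and NPAS2 need. Its normalized count was 979.7, 837.4 and 996.8 in WT (2, 4 and 5) and 316.7, 336.8 and 395.6 in Mmp13-/- (1, 2 and 6). No Mmp13-/- sample came near the WT range, and the mean was 2.69-fold lower (log2 fold change -1.43, SE 0.15, adjusted p = 0.000121, edgeR).

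Npas2 (ENSMUSG00000026077, chromosome 1, 39193731 to 39363236) encodes the CLOCK relative. It was at 529.1, 544.5 and 591.4 in WT and at 134.9, 179.1 and 249.6 in Mmp13-/- samples, in the same order of samples. The WT values kept within an SD of 32.4 around 555, the Mmp13-/- values were again all lower, and the change was -1.58 on the log2 scale (SE 0.21, adjusted p = 0.000313, edgeR). Clock itself (ENSMUSG00000029238, chromosome 5, 76209868 to 76304792, minus strand) went the other way. It was at 1565, 950.8 and 1626 in WT and at 2916, 2411 and 2449 in Mmp13-/-. The genotypes did not overlap, with WT sample 4 standing well under the other WT samples, a log2 difference of 0.91 (SE 0.21, adjusted p = 0.00484, edgeR).

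The negative-limb genes gave 4 different pictures. Cry1 (ENSMUSG00000020038, chromosome 10, 85131700 to 85185064, minus strand), a repressor of the ARNTL pair, had the tightest WT values but for Nr1d2, at 306.3, 324.5 and 319.3, and stood at 224.9, 174.1 and 176.6 in Mmp13-/-. All 3 Mmp13-/- samples were lower, by -0.72 on the log2 scale (SE 0.16, adjusted p = 0.00491, edgeR). Per1 (ENSMUSG00000020893, chromosome 11, 69095217 to 69109960), which is also switched on quickly by light, hormone and stress signals, was at 1319, 3596 and 2931 in WT and at 1232, 1184 and 1476 in Mmp13-/-. WT sample 2 lay inside the Mmp13-/- range, so the genotypes overlapped although the gene was called at -1.01 on the log2 scale (SE 0.30, adjusted p = 0.0183, edgeR). Without WT sample 4 the value was -0.76 and the adjusted p 0.0707.

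Per2 (ENSMUSG00000055866, chromosome 1, 91415982 to 91459324, minus strand), the close relative of Per1 in the same repressor complex, was at 317, 739 and 286.6 in WT and at 622.4, 739.3 and 720.2 in Mmp13-/-. WT sample 4 alone reached the Mmp13-/- level, and the log2 difference of 0.63 (SE 0.31, adjusted p = 0.118, edgeR) did not pass. Without that sample it was 1.16 with an adjusted p of 0.00199, so the call for Per2 rested on WT sample 4. Per3 (ENSMUSG00000028957, chromosome 4, 151003652 to 151044665, minus strand), the member of the family least needed for the rhythm, was at 1656, 2585 and 1705 in WT and at 2014, 2520 and 1466 in Mmp13-/-. The genotypes lay on top of each other, with means of 1982 and 2000 and a log2 difference of 0.01 (SE 0.23, adjusted p = 0.963, edgeR). Over the 6 fits that leave out a sample it ran from -0.24 to 0.21.

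The nuclear receptor repressors parted as well. Nr1d1 (ENSMUSG00000020889, chromosome 11, 98767932 to 98775333, minus strand), which encodes REV-ERB alpha, was at 3687, 4291 and 3334 in WT and at 1217, 1579 and 1644 in Mmp13-/-. Each Mmp13-/- sample was below each WT sample, 2.55-fold in the mean (log2 fold change -1.35, SE 0.17, adjusted p = 0.000251, edgeR). Its exons share 263 bases, 8.55% of their length, with Thra on the other strand, and since the sources do not say whether strand was used in counting, reads of these genes may be mixed there. Nr1d2 (ENSMUSG00000021775, chromosome 14, 18204054 to 18239127, minus strand), which encodes REV-ERB beta, was at 1798, 1725 and 1730 in WT and at 3334, 3647 and 2490 in Mmp13-/-. All 3 Mmp13-/- samples were higher, sample 6 by the least, a log2 difference of 0.85 (SE 0.17, adjusted p = 0.0023, edgeR).

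Dbp (ENSMUSG00000059824, chromosome 7, 45705088 to 45710203), a transcription factor that passes the rhythm on to genes with D-boxes, was at 1063, 1768 and 1015 in WT and at 940.8, 1215 and 702.5 in Mmp13-/-. The ranges overlapped, and the log2 difference of -0.43 (SE 0.25, adjusted p = 0.182, edgeR) did not pass. Without Mmp13-/- sample 2 it was -0.69 with an adjusted p of 0.0452. Its exons share 539 bases, 18.0% of their length, with Sphk2 on the other strand, which held a mean of 1127 estimated counts over the 6 samples, so a part of its reads may be those of Sphk2.

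Levels were compared between genes as normalized counts per kilobase of exon. In WT the order was Nr1d1 at 1226 ± 157.3 (SD, n = 3), Per1 at 464.5 ± 208, Dbp at 428.3 ± 140.8, Nr1d2 at 323.7 ± 7.52 and Per3 at 206.3 ± 54.4. Arntl, Npas2, Clock, Cry1 and Per2 followed at 124.7 to 76.4. The ranges of Per1 and Dbp overlapped, as did each pair of neighbours from Arntl down to Per2, while Nr1d1, Nr1d2 and Per3 stood clear of their neighbours in the order. In Mmp13-/- the order was Nr1d2 at 583.6 ± 110.7, Nr1d1 at 480.9 ± 74.8, Dbp at 318.4 ± 85.8, Per1 at 230.4 ± 27.9, Per3 at 208.2 ± 54.9, Clock at 188.8 ± 20.5, Per2 at 118.5 ± 10.7, Cry1 at 57.4 ± 8.56, Arntl at 46.5 ± 5.46 and Npas2 at 39.2 ± 12.1. Neighbours overlapped down to Clock and from Cry1 to Npas2, and Per2 stood clear on either side. In these counts, which carry no GC correction, Nr1d1 led in WT and Nr1d2 had the higher mean in Mmp13-/-. The positive-limb genes Arntl and Npas2 went from the middle of the order to its end. With the GC correction described below, the Mmp13-/- mean count was 1997 for Nr1d1 (3077 exon bases) and 2589 for Nr1d2 (5409). Per kilobase, Nr1d1 thus kept the higher mean in Mmp13-/-.

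Ratios of estimated counts between members of the same library do not depend on any scaling factor. Clock over Npas2, the alternative partners of ARNTL, was 2.96, 1.75 and 2.75 in WT and 21.6, 13.5 and 9.81 in Mmp13-/-, in the same order of samples. The genotypes were far apart, by 5.86-fold in the geometric mean. Nr1d2 over Nr1d1 was 0.488, 0.402 and 0.519 in WT and 2.74, 2.31 and 1.51 in Mmp13-/-. These ranges were apart as well, although per kilobase Mmp13-/- sample 6 still had more Nr1d1 (534.4) than Nr1d2 (460.3). Per2 over Arntl, genes of opposite phase in most tissues, was 0.324, 0.883 and 0.288 in WT and 1.97, 2.20 and 1.82 in Mmp13-/-, 4.57-fold higher in the geometric mean. Per2 over Per1 also rose in every Mmp13-/- library above every WT library, by 3.17-fold.

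For other pairs the genotypes overlapped in the uncorrected counts. Npas2 over Arntl was 0.540, 0.650 and 0.593 in WT and 0.426, 0.532 and 0.631 in Mmp13-/-. Arntl over Nr1d1, an activator and its repressor, was 0.266, 0.195 and 0.299 in WT and 0.260, 0.213 and 0.241 in Mmp13-/-, with all Mmp13-/- values inside the WT range, an overlap that was lost with the GC correction described next. Dbp over Arntl overlapped too, at 1.02 to 2.11 in WT and 1.78 to 3.61 in Mmp13-/-, again without the correction only. The median log2 fold change of the 3 positive-limb genes minus that of the other 7 members was -1.001, but that median sets aside Clock, which moved against its limb.

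**Figure D2:**
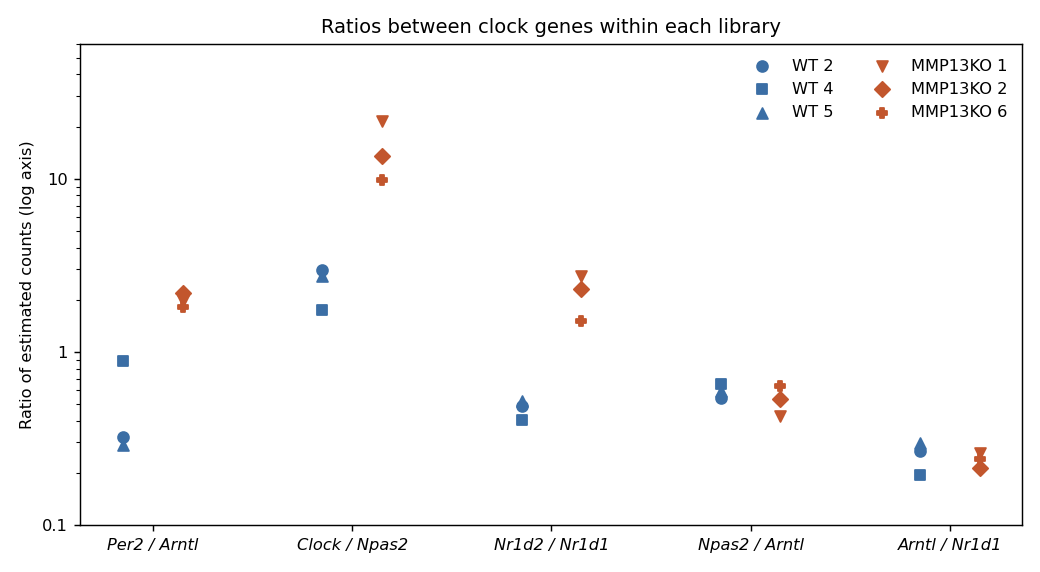
Ratio of the estimated counts of paired clock genes in each library (y axis, log scale), with WT samples in blue and MMP13KO (Mmp13-/-) samples in orange. Per2 over Arntl, Clock over Npas2 and Nr1d2 over Nr1d1 separate the genotypes, while Npas2 over Arntl and Arntl over Nr1d1 overlap in these counts, which carry no GC correction.

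The members called higher were those poorest in G and C. The GC content of the longest transcript ran from 40.9% for Clock and 41.8% for Nr1d2 to 56.8% for Nr1d1, 59.4% for Per1 and 61.6% for Dbp. The fit was therefore repeated with each library corrected for GC content. Under this correction 5 members were called. Arntl, Npas2 and Nr1d1 were still lower, at -1.29 (SE 0.16, adjusted p = 0.000984), -1.08 (SE 0.25, adjusted p = 0.0111) and -0.49 (SE 0.16, adjusted p = 0.0434, edgeR throughout). The call for Nr1d1 was lost when a per-kilobase background was subtracted as well (-0.46, adjusted p = 0.0723, edgeR). The background was then 23.8% of all genes called higher and 12.9% lower, so 3 of 10 members lower stood above the share of all genes and 2 of 10 higher did not. The median log2 fold change of the members became 0.15, beside 0.22 over all genes.

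Per2 and Dbp were the members called higher after the correction. Per2 was at 266.6, 568.2 and 224.7 in WT and at 742.1, 889.5 and 990.6 in Mmp13-/- in corrected counts, so the genotypes no longer overlapped (log2 fold change 1.30, SE 0.32, adjusted p = 0.0153, edgeR). Dbp turned its direction, at 0.70 (SE 0.22, adjusted p = 0.0374, edgeR). Its corrected counts were 760.2, 1132 and 688.7 for WT and 1343, 1753 and 1099 for Mmp13-/-, which still overlapped. The calls for Clock (0.28, adjusted p = 0.224), Nr1d2 (0.29, adjusted p = 0.0531), Cry1 (-0.30, adjusted p = 0.129) and Per1 (0.033, adjusted p = 0.941) were lost in the same edgeR fit. Per3 did not pass in either fit (0.50 with the correction, adjusted p = 0.0756, edgeR). Nr1d2 was called higher when the per-kilobase background was subtracted as well (0.33, adjusted p = 0.0292, edgeR).

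The ratios between members shrank or grew accordingly. With the correction Clock over Npas2 was 2.66-fold and Nr1d2 over Nr1d1 1.74-fold higher in Mmp13-/-, while Per2 over Arntl was 6.60-fold higher. Arntl over Nr1d1 no longer overlapped, at 0.267 to 0.385 in WT and 0.161 to 0.2 in Mmp13-/-, nor did Dbp over Arntl, at 0.728 to 1.39 and 2.36 to 5.31. Npas2 over Arntl overlapped with the correction too, at 0.498 to 0.552 and 0.486 to 0.701. Arntl and Npas2 were the members whose direction and call held in the main fit, in the GC-corrected fit and in every other setting tried.

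**Figure D3:**
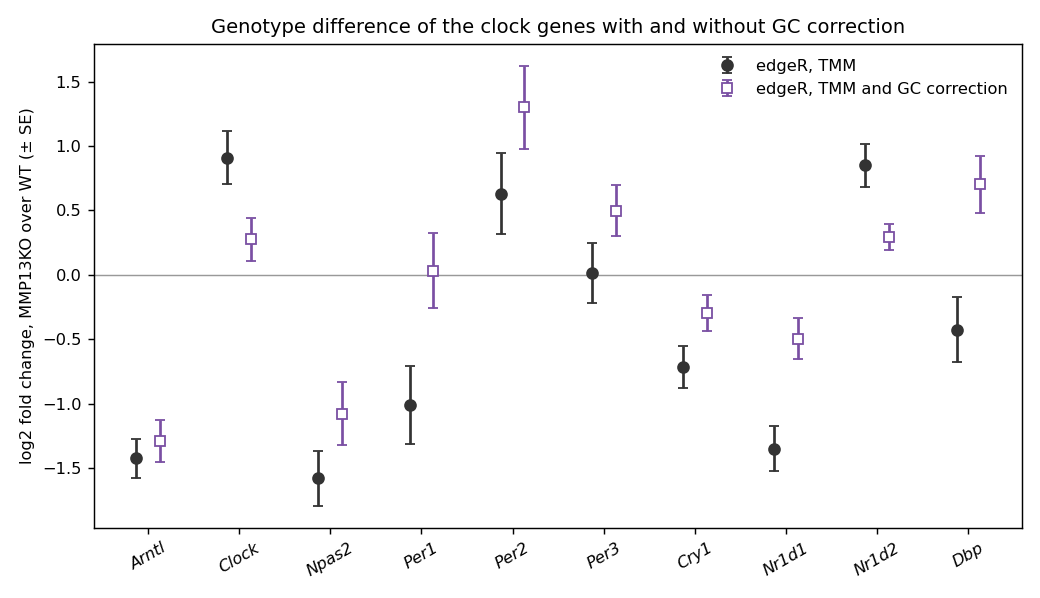
log2 fold change of Mmp13-/- over WT (y axis, bars are SE) for each clock gene from edgeR with TMM factors (filled circles) and with GC correction added (open squares). Arntl, Npas2, Cry1 and Nr1d1 stay below 0 in both, Per1 moves from -1.01 to 0.033, and Dbp crosses from -0.43 to 0.70.

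**Figure D4:**
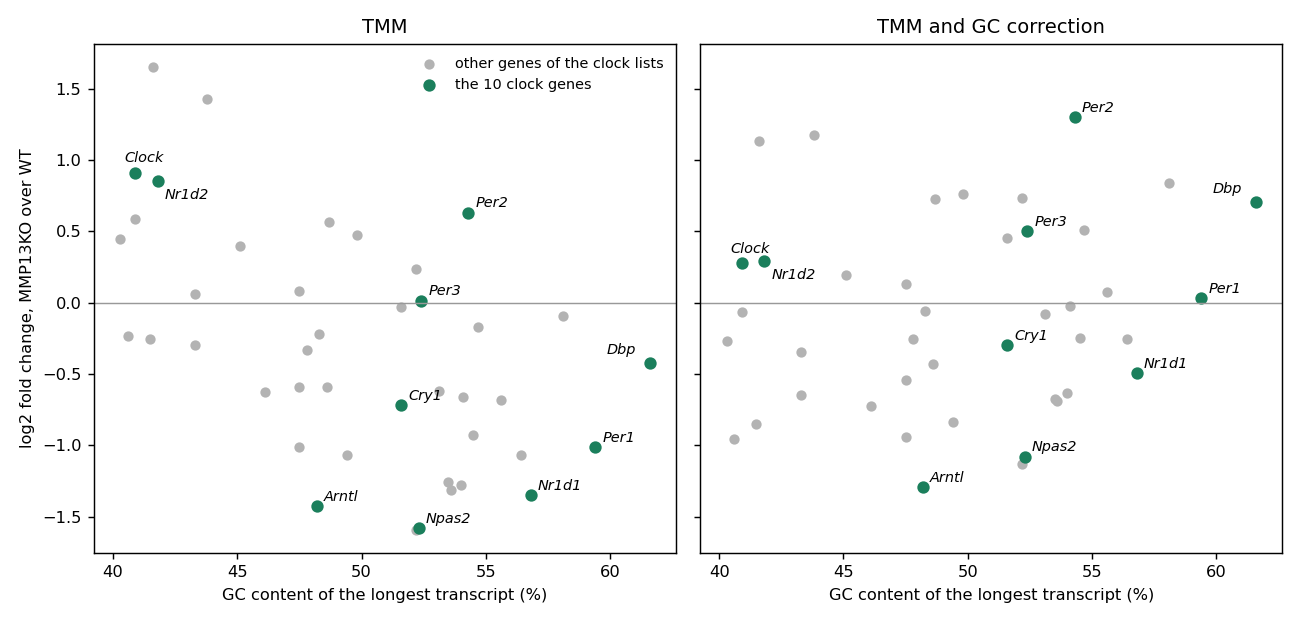
log2 fold change of Mmp13-/- over WT (y axis) against the GC content of the longest transcript (x axis, percent), before and after GC correction, for the 10 clock genes (green, named) and the other genes of the clock lists (grey). Before correction the GC-poor Clock and Nr1d2 lie highest among the members, and Arntl and Npas2 lie lowest in both panels.

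Samples of one genotype also differed among themselves in their clock genes. Without GC correction, WT sample 4 was the highest WT sample for 6 members (Per1, Per2, Per3, Cry1, Nr1d1 and Dbp). It was the lowest for 3 (Arntl, Clock and Nr1d2). With the correction it was the highest WT sample for Nr1d2, at 2289 against 2008 and 2048 in WT samples 2 and 5. The variation and scores that follow carry no GC correction. In WT the coefficient of variation was 56.5% for Per2 and 44.8% for Per1, compared with 2.32% for Nr1d2 and 2.96% for Cry1. In Mmp13-/- Per2 varied by 9.03% and Npas2 by 30.8%. A score for each library, the median log2 deviation from the WT mean over the positive limb minus that over the other members, was 0.29, -0.57 and 0.26 for WT samples 2, 4 and 5, against -1.16, -1.44 and -0.45 for Mmp13-/- samples 1, 2 and 6. WT sample 4 and Mmp13-/- sample 6 thus overlapped. With both left out together, a setting chosen after seeing the data, 8 members were called, with Per2 (1.18) and Per3 (0.44) now higher and Per1 no longer passing. In that fit 10870 of 24670 genes were called.

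Around the 10 members, 11 further genes of the clock's transcription loops were measured, and 9 were called, 6 lower and 3 higher, with a median log2 fold change of -0.59. Beside 24.3% of all genes called lower and 27.3% higher, the share called lower was above that of all genes and the share called higher was close to it. Rora (0.59, adjusted p = 0.00774) and Rorb (1.65, adjusted p = 0.00517, edgeR), activators that share their element with the REV-ERB repressors, were higher. Bhlhe40, a repressor that competes at E-boxes, was lower (-1.07, adjusted p = 0.00122), as were the second cryptochrome Cry2 (-0.68, adjusted p = 0.00367) and the D-box repressor Nfil3 (-0.93, adjusted p = 0.00592, all edgeR). The DBP relatives parted, Tef being lower (-0.62, adjusted p = 0.0424) and Hlf higher (0.40, adjusted p = 0.0499, edgeR). With GC correction 2 of these 11 were called, both lower, beside 12.9% of all genes, and Bhlhe40 was among them (-0.83, adjusted p = 0.00505, edgeR). The calls for Cry2 (0.08, adjusted p = 0.625) and Nfil3 (-0.25, adjusted p = 0.381, edgeR) were lost. So were those for Rora, Rorb, Tef and Hlf. The calls for Rora, Tef and Hlf held in 3, 4 and 1 of the 6 fits that leave out a sample.

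Of 10 genes whose proteins modify or bind clock proteins, 5 were called, 3 lower and 2 higher, near the 51.6% of all genes called, with a median of -0.25. The casein kinases Csnk1e (-1.07, adjusted p = 0.000236) and Csnk1d (-0.66, adjusted p = 0.00329), which phosphorylate PER proteins, and the kinase Gsk3b (-0.62, adjusted p = 0.0067) were lower, and the RNA-binding partner Nono was higher (0.57, adjusted p = 0.0193, all edgeR). Under GC correction 2 of the 10 were called higher and 4 lower, beside 23.8% and 12.9% of all genes. Gsk3b and Nono were among them, while the calls for Csnk1e (-0.25, adjusted p = 0.0643) and Csnk1d (-0.02, adjusted p = 0.837, edgeR) were lost. Among 5 genes outside the loop that are rhythmic in many tissues, Usp2, a deubiquitinase, was the only one called (-1.25, adjusted p = 0.000636, edgeR), a share under the 51.6% of all genes, and the list median was -0.09. GC correction gave 2 higher and 1 lower. Of 6 genes induced by glucocorticoid, a hormone with its own daily rhythm, 4 were called lower and none higher, beside 24.3% and 27.3% of all genes. They were Klf9 (-1.01, adjusted p = 0.000771), Dusp1 (-1.27, adjusted p = 0.000933), Zbtb16 (-1.31, adjusted p = 0.00125) and Sgk1 (-0.59, adjusted p = 0.0252, all edgeR). The list median was -0.80, and 2 of the 6 were called lower with GC correction, beside 12.9% of all genes. Those were Klf9 and Dusp1, while the calls for Zbtb16 (-0.69, adjusted p = 0.0696) and Sgk1 (-0.43, adjusted p = 0.0662, edgeR) were lost. The calls for Nono and Sgk1 held in 2 and 3 of the 6 fits that leave out a sample.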

How the data were processed

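Pulp RNA of 3 WT and 3 Mmp13-/- mice was sequenced by the authors as paired reads (2 × 150 bases). The estimated counts per gene, which carry fractions, and the log2 values (median-of-ratios scaling, threshold of 1, centred on each gene's median) were made by the authors in Strand NGS. The submitters' processing notes name mm10 and DESeq, and the aligner, annotation release and strand setting are not given in the sources used here. The deposited log2 values were recomputed from the counts, and 100% lay within 0.01.

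Estimated counts were rounded and tested with edgeR 4.0.16 in R 4.3.3 (quasi-likelihood, TMM factors, filter on low counts by genotype, no covariate, Benjamini-Hochberg over all 24534 genes tested), and a gene was called at an adjusted p under 0.05. Each SD is that between 3 samples per genotype, which the design text calls biological replicates. Each SE is the absolute log2 fold change over the square root of the F statistic of the edgeR test. A gene at 3 counts stood at 0.139 CPM or less, for counting error only. Alternatives were RLE, upper-quartile and no factors, no filter, a filter of 10 counts in every sample, DESeq2 1.42.0, limma 3.58.1 on the deposited log2 values, GC correction (loess, span 0.4, genes with mean log2 CPM above 3), subtraction of a per-kilobase background, each sample left out, and an adjusted p under 0.01. The scripts were tested on simulated data. Lengths, positions and GC content came from GENCODE M21, matched by Ensembl identifier for 99.8% of genes.

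Named genes were all 10 members, Mmp13, the 4 genes of each other clock list with the smallest adjusted p among those called, and Cry2, Rora, Bhlhe40, Nfil3, Tef and Hlf. The values of 1 gene that this rule names are not reported here. Members and lists were chosen with earlier results of these data known. Genotypes share only the replicate number 2, so samples were not paired. Sequencing batches are not given in the sources used here, and batch and genotype cannot be told apart.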

Additional observations from a re-analysis of the deposited data

How the results depend on the processing

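No paired analysis was possible because the genotypes share only the replicate number 2. The members called numbered 5 to 9 over all settings. The 9 came with no filter, where 19292 of 49715 genes were called. The 5 came with GC correction, alone (8996 of 24534 genes) or with background subtraction (7742 of 22756). Upper-quartile factors moved the median of all genes to 0.32 (log2), total counts to 0.21 and GC correction to 0.22, from 0.10, and the split of called genes, 6710 higher and 5955 lower, became 8169 and 4618, 6892 and 3065, and 5834 and 3162.

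Genes called, 12665 in all, were 19292 with no filter and 7742 with GC correction and background subtraction. Past 2-fold, 7381 became 4666 with a minimum of 10 counts, 14325 with no filter, 11879 with DESeq2, 4750 with GC correction and 3475 with background subtraction added. Other loop genes called (9) became 4 with total counts, 2 and 3 with GC correction alone and with background subtraction, and 5 with WT sample 4 and Mmp13-/- sample 6 left out. Modifiers (5) became 2 with total counts and 3 at an adjusted p under 0.01. Rhythmic outputs (1) became 3 with upper-quartile factors, a minimum of 10 counts, GC correction, background subtraction, or both. Glucocorticoid-responsive genes (4) became 2 with GC correction and 1 with background subtraction added. The limb difference of -1.001 moved to -1.65 with both samples left out.

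Per1 reversed to 0.033 with GC correction and 0.062 with background subtraction added. Dbp reversed to 0.70, 0.73 and, with both samples left out, 0.059. Per3, near 0, reversed to -0.086 with no filter, -0.029 with DESeq2 and -0.051 with limma. The causes were not tested.

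Leaving out 1 sample at a time, 10915 to 12864 genes were called, 7146 to 8751 past 2-fold, 7 to 8 members, 5 to 8 other loop genes (5 without WT sample 4), 3 to 5 modifiers (3 without WT sample 4 or 5), 1 to 2 outputs (2 without WT sample 2 or Mmp13-/- sample 6) and 3 to 4 glucocorticoid-responsive genes. The limb difference ran from -1.38 to -0.77, Per3 from -0.24 to 0.21 and Mmp13 from -5.65 to -4.50.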
